A study of Mus musculus with 2 samples.

Results

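Genomic imprinting silences 1 of the parental copies of a gene, so that the other copy alone is expressed. Imprinted genes lie in clusters that share control regions, and many of them set how fast tissues grow before and shortly after birth. As a rule, paternally expressed members favor growth and maternally expressed members restrain it. Many members are highly expressed in fetal mesenchyme and decline as the young animal matures.

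A set of 10 imprinted growth genes was followed in fibro/adipogenic progenitors (FAPs), the mesenchymal cells that lie between muscle fibers. They were taken by gene symbol, and all 10 of 10 were found among the 31053 genes of both count tables. *H19*, *Meg3*, *Cdkn1c* and *Grb10* are usually expressed from the maternal copy outside the nervous system. *Dlk1*, *Peg3*, *Mest*, *Plagl1*, *Ndn* and *Nap1l5* are usually expressed from the paternal copy. The counts are per gene, so they do not tell the copies apart, and nothing here measures imprinting itself.

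The data were 2 droplet scRNA-Seq libraries of FAPs sorted as 7AAD-, lineage-, Vcam1-, Sca1+ cells from limb muscles of 3-week-old C57BL/6 mice (C57BL/6J in the study's methods). The library labelled Bap1_WT came from Bap1f/f mice, and the library labelled Bap1_cKO from Prx1-Cre;Bap1f/f mice, in which Cre acts in the mesenchyme of the limb. Both carry the floxed *Bap1* allele. With 1 library per genotype, no difference between them has a replicate check, no test was possible and no p-value is given. How many mice gave the cells of a library is not given in the sources used here.

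The libraries held 4103 and 4378 cells, with 51015705 and 49540066 unique molecular identifiers (UMIs) and medians of 12232 and 11017.5 UMIs per cell. Levels are UMIs summed over the cells of a group and divided by the total of that group (CPM, counts per 1e6 UMIs). All intervals are exact at 95% (Poisson for CPM and ratios, Clopper-Pearson for shares of cells) and cover counting error only. UMIs count transcripts by their 3′ ends and are not divided by length, so levels of different genes are compared per molecule counted. *Bap1* had 17.6 CPM (interval 16.5 to 18.8) in the library labelled Bap1_WT and 21.6 CPM (20.4 to 23.0) in the library labelled Bap1_cKO. Its counts were thus not lower under the label Bap1_cKO. They do not tell which exons a transcript held, so they cannot show the deletion of exons that the study's methods describe. The study reports separately that *Bap1* was disrupted in FAPs of mice of this genotype. Higher and lower therefore refer to the labels of the libraries alone. The 2 libraries shared 5 cell barcodes. All 5 FAP markers (*Pdgfra*, *Ly6a*, *Cd34*, *Dcn*, *Col1a1*) were detected, each in at least 93.9% and 84.1% of cells. *Pax7*, *Myf5* and *Myod1* of muscle stem cells and *Ptprc*, *Adgre1* and *Cd3e* of immune cells were at 0 in both libraries. The other genes of these lists were detected, in up to 26.3% and 12.6% of cells for the first list and 4.19% and 6.05% for the second. *Vcam1*, which the sort selected against, had 37.6 and 20.5 CPM. The study's methods describe removing cells with high levels of markers of other muscle cells. The part of that step in the zeros was not tested.

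Cells with at least 25 UMIs of *Pi16*, *Sema3c*, *Anxa3* and *Efemp1* per 10000 UMIs were called Dpp4-type. Dpp4+ and Cxcl14+ FAPs are the subtypes named in the study, and this gate marks the first. The gate took 1050 cells (25.6%) of the library labelled Bap1_WT and 1251 cells (28.6%) of the library labelled Bap1_cKO, leaving 3053 and 3127 other cells. None of the 10 imprinted genes entered the gate. Within 20 to 30 UMIs per 10000, close to the limit, lay 210 and 337 cells. Other cells were split further into Cxcl14-type cells (1434 and 1288), with at least 25 UMIs per 10000 of *Cxcl14*, *Smoc2*, *Hsd11b1*, *Col15a1* and *Crispld2*, and cells of neither type (1619 and 1839).

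Several of the 10 genes are neighbors of each other or of other imprinted genes. *H19*, a noncoding RNA gene, is at chr7:142575529-142578143 on the minus strand (GRCm38, the build of the deposited counts), 72.6 kb from *Igf2*. *Cdkn1c* is on the same chromosome at chr7:143458339-143461050. *Dlk1* (chr12:109452823-109463336) and *Meg3* (chr12:109541001-109571726) share a strand and are 77.7 kb apart. *Peg3* (chr7:6703892-6730431, minus strand) is 7.44 kb from *Zim1* and 0.146 kb from *Usp29*, which is read the other way. *Ndn*, a gene of 1 exon at chr7:62346569-62350262, is 26.7 kb from *Magel2*. *Mest* (chr6:30723547-30748465) overlaps exons of *Copg2* on the opposite strand, and *Nap1l5* (chr6:58905233-58907076) lies inside *Herc3* on the opposite strand. Whether the counting used strand is not given in the sources used here, so counts of *Mest* and *Nap1l5* could hold UMIs of those partners. *Cdkn1c*, *Meg3* and *Ndn* overlap the gene models *Gm44732*, *Gm26906* and *Gm32061*. *Grb10* (chr11:11930508-12038683) and *Plagl1* (chr10:13060504-13131694) stand apart from the other 8.

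Promoters were taken from RefSeq annotation of GRCm38.p6, which matched 8 of the 10 genes, as the 250 bases before and 50 bases after a start site. Those of *Dlk1*, *Meg3* and *Peg3* are shown because each has a close imprinted neighbor whose level is set beside its own further on. Capitals mark matches, on either strand, to TATAAA (the TATA box), TGACGTCA (the cAMP response element), ATGGCG (a YY1 core) and GGGGCCCC (part of the consensus of Plagl1).
Dlk1, chr12:109452573-109452872, plus strand: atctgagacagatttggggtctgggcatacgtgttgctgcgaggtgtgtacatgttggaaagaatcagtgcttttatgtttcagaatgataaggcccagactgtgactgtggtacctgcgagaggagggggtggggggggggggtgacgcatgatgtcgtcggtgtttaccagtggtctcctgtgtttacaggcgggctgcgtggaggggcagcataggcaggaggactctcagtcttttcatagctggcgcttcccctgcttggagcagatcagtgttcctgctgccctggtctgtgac
Meg3, chr12:109540746-109541045, plus strand: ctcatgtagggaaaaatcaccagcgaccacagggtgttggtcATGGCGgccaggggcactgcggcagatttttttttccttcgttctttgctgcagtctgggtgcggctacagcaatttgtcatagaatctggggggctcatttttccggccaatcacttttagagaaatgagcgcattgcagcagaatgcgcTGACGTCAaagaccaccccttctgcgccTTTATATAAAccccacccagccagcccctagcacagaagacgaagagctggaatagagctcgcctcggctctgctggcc
Peg3, chr7:6730370-6730669, minus strand: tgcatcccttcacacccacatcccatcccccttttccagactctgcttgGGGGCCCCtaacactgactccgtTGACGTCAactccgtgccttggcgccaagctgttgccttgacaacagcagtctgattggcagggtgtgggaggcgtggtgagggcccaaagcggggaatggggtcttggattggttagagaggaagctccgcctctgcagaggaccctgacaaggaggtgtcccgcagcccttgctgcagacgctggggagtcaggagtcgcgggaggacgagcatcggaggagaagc
Among 32851 promoters of the same length, 13.6% hold TATAAA, 1.79% TGACGTCA, 8.93% ATGGCG and 1.08% GGGGCCCC. The *Meg3* window shown held the first 3 of these, with 2 overlapping TATAAA matches on opposite strands that share bases. Another annotated start of *Meg3* has its window at chr12:109545148-109545447. That window is not shown and held none of the 4. The *Peg3* window, which also spans the annotated start of *Usp29*, held TGACGTCA and GGGGCCCC. The *Dlk1* window held none of the 4, which says only that these letters are not in it.

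*H19*, *Meg3* and *Mest* are also hosts of microRNAs, with 2, 3 and 2 mature sequences. Those of *H19* and *Mest* are given here. The mature sequences from RefSeq are shown with the seed (bases 2 to 8) in capitals, because the counts of the host genes do not measure them. The pair of *H19* lies within an exon and the pair of *Mest* within an intron, and all 4 seeds differ.
miR-675-5p, chr7:142577112-142577133, minus strand: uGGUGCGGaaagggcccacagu
miR-675-3p, chr7:142577078-142577099, minus strand: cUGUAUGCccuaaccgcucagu
miR-335-5p, chr6:30741314-30741336, plus strand: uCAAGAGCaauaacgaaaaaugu
miR-335-3p, chr6:30741354-30741375, plus strand: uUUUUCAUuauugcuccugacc

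The 2 noncoding RNAs were the most abundant of the 10 in both libraries. *Meg3*, the maternal RNA of the *Dlk1* cluster, had 2952 CPM (2937 to 2967) in the library labelled Bap1_WT and 2636 CPM (2622 to 2651) in the library labelled Bap1_cKO. *H19*, the maternal RNA of the *Igf2* cluster, had 866 CPM (858 to 874) and 1591 CPM (1580 to 1602). At least 3-fold fewer UMIs than *Meg3* were thus counted for any other member in the library labelled Bap1_WT. In that library *Cdkn1c* followed with 493 CPM, *Peg3* with 458 CPM and *Ndn* with 407 CPM. *Grb10* had 248 CPM, *Dlk1* 179 CPM, *Plagl1* 148 CPM and *Mest* 128 CPM. The counting intervals of all neighbors in this order were separate. The order differed in the library labelled Bap1_cKO, where *Peg3* (476 CPM) followed *H19*, the intervals of *Ndn* (354 to 364 CPM) and *Cdkn1c* (352 to 363 CPM) overlapped, and *Dlk1* (339 CPM) stood above *Grb10* (252 CPM). *Nap1l5*, a nucleosome assembly protein family member, was scarce, with 129 UMIs (2.53 CPM) and 34 UMIs (0.686 CPM).

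**Figure D1:**
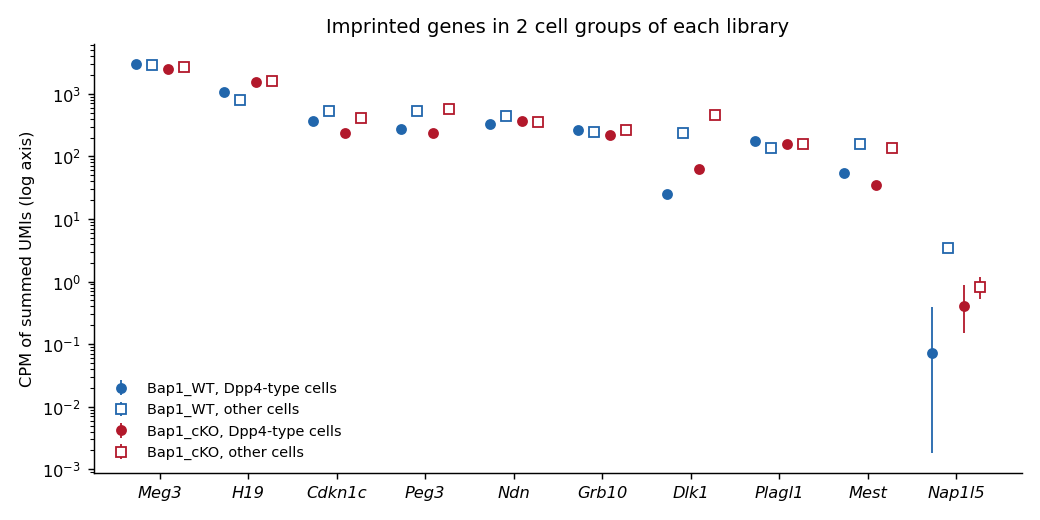
CPM of summed UMIs on a log axis for the 10 imprinted genes in Dpp4-type cells (filled circles) and other cells (open squares) of each library, with exact Poisson 95% intervals. *Dlk1*, *Mest* and *Peg3* sit lower in Dpp4-type than in other cells of both libraries, while *Meg3* lies between 2507 and 3021 CPM in all 4 groups.

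*H19* and *Dlk1* were higher and *Nap1l5* lower in the library labelled Bap1_cKO, and the other 7 genes differed by less than 1.5-fold over all cells. *H19* was 1.84-fold higher (interval 1.82 to 1.86), and *Dlk1*, a membrane protein of the Notch ligand family that restrains adipocyte differentiation, was 1.89-fold higher (1.84 to 1.94). *Nap1l5* was 3.68-fold lower (2.51 to 5.55). These were 3 of 10 members past 1.5-fold, where 17.6% of the 12380 genes compared were past it (9.5% higher and 8.13% lower). Only *Nap1l5* among the 10 was past 2-fold or 3-fold, sizes that 7.71% and 3.12% of all genes compared reached. Its ratio rests on 129 and 34 UMIs, found in 2.41% and 0.708% of cells, shares that some transcripts from outside the sort gate also reached. The expression filter asked for a mean over 0.01. In the units of that filter, *Nap1l5* had 0.0283 in the library labelled Bap1_WT and 0.00807 in the library labelled Bap1_cKO. It thus entered the comparison only through the library where it was higher. Without *Nap1l5*, 2 of 9 members were past 1.5-fold and none past 2-fold. It is also in the counts given further on, except those between the libraries within Dpp4-type cells.

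*Cdkn1c*, an inhibitor of cyclin-dependent kinases, was lower in the library labelled Bap1_cKO, with a log2 ratio of -0.46 (-0.49 to -0.43). *Mest*, a hydrolase-like protein linked to the growth of fat tissue, had a log2 ratio of -0.28 (-0.33 to -0.22). Those of *Ndn*, a growth suppressor of the MAGE family, and of *Meg3* were -0.18 and -0.16. *Plagl1*, a zinc-finger transcription factor of other imprinted genes, had a log2 ratio of 0.10 (0.05 to 0.14), equal to the median of 0.10 over all genes compared. *Peg3*, a zinc-finger protein, had 0.06 (0.03 to 0.08), and *Grb10*, an adaptor that restrains insulin signaling, had 0.02 (-0.02 to 0.05). Under TMM scaling, which moves the median of all genes to about 0, these values became 0.00, -0.04 and -0.08, so no direction can be given for *Plagl1*, *Peg3* and *Grb10*. The median over the 10 members was -0.07. The median absolute log2 ratio of the members was 0.23, as it was over all genes compared.

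The libraries were also compared within each cell group. In Dpp4-type cells, *Dlk1* was at 25.1 CPM (22.5 to 27.8) in the library labelled Bap1_WT and at 63.8 CPM (59.8 to 68.0) in the library labelled Bap1_cKO, or 2.54-fold higher (2.25 to 2.88). The first level rests on 354 UMIs in 13.6% of those cells, a share that some myofiber genes also reached there (up to 15.2%). *Cdkn1c* (log2 ratio -0.65, -0.71 to -0.59) and *Mest* (-0.62, -0.78 to -0.46) were lower by more than 1.5-fold. Without the 42 and 44 cells with the most member UMIs, these ratios were -0.58 and -0.56 and no longer past 1.5-fold. That of *Mest* was also under this size with the gate at 15 or at 40 UMIs per 10000 (-0.57 and -0.45). With the gate at 25 and all cells, *Dlk1*, *Cdkn1c* and *Mest* were 3 of the 9 members with at least 20 UMIs, and 18.6% of the 12066 genes compared were past 1.5-fold there (9.12% higher and 9.46% lower). *Dlk1* alone was past 2-fold, with 7.83% of all genes compared, and no member was past 3-fold, with 3.02%. With the gate at 40 UMIs per 10000 the log2 ratio of *Dlk1* was 1.98, past 3-fold, against 1.35 with the gate at 25. *H19* was 1.41-fold higher (1.38 to 1.44) and so stayed under that size. *Nap1l5* had 1 and 6 UMIs, too few to compare.

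In other cells, *H19* was 2.07-fold higher (2.04 to 2.10), *Dlk1* 1.91-fold higher (1.86 to 1.96) and *Nap1l5* 4.31-fold lower (2.84 to 6.74). They were again 3 of 10, where 19.3% of the 12371 genes compared were past 1.5-fold (11.1% higher and 8.2% lower). *H19* and *Nap1l5* were past 2-fold (8.75% of all genes compared) and *Nap1l5* past 3-fold (3.69%). *Cdkn1c* had a log2 ratio of -0.40 and *Mest* of -0.20. *Peg3*, *Grb10* and *Plagl1* had log2 ratios below 0 in Dpp4-type cells and above 0 in other cells, and *Ndn* the reverse. Each of these 8 intervals was on its own side of 0, but none of the ratios reached 1.5-fold, and the difference between the cell groups was not tested. How many of all genes compared had such opposite ratios was not computed, so this is not read as particular to the members.

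**Figure D2:**
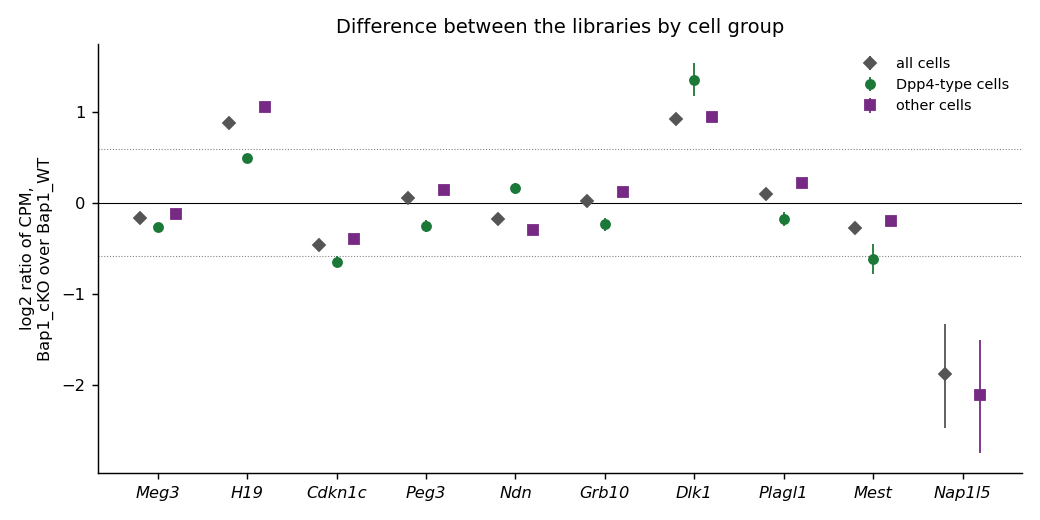
Log2 ratio of CPM in the library labelled Bap1_cKO over the library labelled Bap1_WT for all cells, Dpp4-type cells and other cells, with exact 95% counting intervals; dotted lines mark 1.5-fold. *H19* and *Dlk1* are above 0 and *Cdkn1c* and *Mest* below 0 in all 3 groups, and *Nap1l5* is not shown for Dpp4-type cells, where it had 1 and 6 UMIs.

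Summed levels of marker lists differed between the libraries in both directions. The 5 FAP markers summed to 38019 CPM in the library labelled Bap1_WT and 24918 CPM in the library labelled Bap1_cKO. In the same order, the 5 adipocyte markers summed to 6.21 CPM, with *Cidec* at 0, and 75.6 CPM. The 5 tendon markers summed to 30.8 and 103 CPM, the 6 cell-cycle markers to 41.2 and 76.6 CPM, and the 6 immune markers to 6.39 and 13.3 CPM. The 5 Schwann cell markers summed to 21.2 and 67.3 CPM, of which *S100b* alone gave 16.8 and 63.7 CPM and the other 4 genes 4.45 and 3.67 CPM. Lower in the second library were the 6 myofiber markers (60.7 and 35.9 CPM), the 6 muscle stem cell markers (48.4 and 37.3 CPM), the 5 mural markers (38.7 and 31.5 CPM), the 5 erythroid markers (37.8 and 23.6 CPM) and the 5 endothelial markers (13.5 and 9.27 CPM). Without cycling cells, 3 of 10 members were again past 1.5-fold, with log2 ratios of 0.88 for *H19* and 0.90 for *Dlk1*. The part of the FAP, Schwann cell and lower marker lists in the ratios was not tested. With 70 and 262 cells left out that held tendon or adipocyte markers at 5 or more UMIs per 10000, *H19* and *Dlk1* had log2 ratios of 0.92 and 0.995 over all cells, and 3 of 10 members were again past 1.5-fold. Without cycling cells, or without these 70 and 262 cells, the share of all genes past 1.5-fold was not computed.

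The comparison of Dpp4-type with other cells is made within a library and so does not depend on the labels. *Dlk1* was 9.50-fold lower in Dpp4-type than in other cells of the library labelled Bap1_WT (interval 8.54 to 10.6) and 7.15-fold lower in those of the library labelled Bap1_cKO (6.69 to 7.64). The size moved with the gate: at 15 UMIs per 10000 the log2 ratios were -2.56 and -2.37, and at 40 they were -4.30 and -3.18, against -3.25 and -2.84 at 25. In Dpp4-type cells of the first library *Dlk1* had 354 UMIs, in a share of cells (13.6%) that some myofiber genes also reached. *Mest* was 2.87-fold (2.66 to 3.1) and 3.83-fold lower (3.50 to 4.2). *Peg3* was 1.90-fold (1.84 to 1.97) and 2.49-fold lower (2.40 to 2.58). *Cdkn1c* was 1.45-fold lower in the first library and 1.72-fold lower in the second. Its log2 ratio in the first was -0.53 and passed 1.5-fold with the gate at 40 UMIs per 10000 (-0.75) or without the highest 1% of cells (-0.60), where 5 members were past it in both libraries. The share of all genes past 1.5-fold under these settings was not computed.

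Together with *Nap1l5*, 4 of 10 members were past 1.5-fold in the library labelled Bap1_WT and 5 of 10 in the library labelled Bap1_cKO, all of them lower in Dpp4-type cells. Of all genes compared, 24.6% and 24.7% were past 1.5-fold in either direction, and 15.1% and 16.3% were lower by that size (9.53% and 8.37% higher). Past 2-fold were *Dlk1*, *Mest* and *Nap1l5* in the first library and *Dlk1*, *Mest* and *Peg3* in the second, where 14.7% and 14.3% of all genes compared were. Past 3-fold were *Dlk1* and *Nap1l5* in the first and *Dlk1* and *Mest* in the second, where 8.63% and 8.03% of all genes were. The medians of the 10 log2 ratios were -0.48 and -0.52, against -0.02 and -0.05 over all genes compared. *Nap1l5* had 1 UMI in Dpp4-type and 128 UMIs in other cells of the first library, a log2 ratio of -5.61 (-10.9 to -3.11). In the units of the expression filter its means there were 0.000617 and 0.0378, so only the other cells were over 0.01. In the second library it had 6 and 28 UMIs, and the interval (-2.55 to 0.31) held 0.

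*Meg3* was nearly even between these cell groups. Its log2 ratio of Dpp4-type to other cells was 0.05 in the library labelled Bap1_WT and -0.10 in the library labelled Bap1_cKO. *H19* was 1.38-fold higher in Dpp4-type cells of the first library (1081 against 783 CPM), whereas in the second the values were 1524 and 1620 CPM. *Plagl1* was 1.31-fold higher in Dpp4-type cells of the first library (178 against 136 CPM) and had 157 and 159 CPM in the second, where the interval of the ratio held 1. *Ndn* was 1.34-fold lower in Dpp4-type cells of the first library, and in the second its interval also held 1. *Grb10* had 261 against 244 CPM in the first library and 221 against 265 CPM in the second.

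Among other cells, several members were highest in Cxcl14-type cells. In the library labelled Bap1_WT, *Dlk1* was at 25.1 CPM in Dpp4-type cells, 107 CPM in cells of neither type and 397 CPM in Cxcl14-type cells. In the library labelled Bap1_cKO the values were 63.8, 332 and 640 CPM. *Mest* showed the same order, with 54.5, 101 and 224 CPM in the first library and 35.5, 110 and 174 CPM in the second. *Cdkn1c* was highest in Cxcl14-type cells, at 793 CPM (780 to 807) and 646 CPM (632 to 659). Its levels in Dpp4-type and neither cells lay between 238 and 373 CPM. *Meg3* was also highest in Cxcl14-type cells, with 3721 CPM against 2268 CPM in neither cells of the first library and 3039 against 2457 CPM in the second. For *H19* the order changed: Dpp4-type cells were highest in the first library (1081 CPM) and Cxcl14-type cells in the second (1796 CPM).

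Cycling cells (48 and 86 cells) had 230 CPM (195 to 270) and 214 CPM (188 to 243) of *Cdkn1c*, below the 493 and 358 CPM of all cells. *Meg3* was at 1763 and 1762 CPM in them. *Dlk1* was at 114 CPM in cycling cells of the first library and 423 CPM in those of the second. Tendon-like cells (66 and 202 cells) had 103 and 56.0 CPM of *Plagl1* and 90.8 and 52.2 CPM of *Mest*, below the level of all cells in both libraries. *H19* reached 1621 CPM (1540 to 1705) in tendon-like cells of the first library and 1171 CPM (1128 to 1215) in those of the second.

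The share of cells with a UMI did not always move with the level. As deposited, *Peg3* was found in 86.4% of cells of the library labelled Bap1_WT and in 74.6% of the library labelled Bap1_cKO. *Cdkn1c* was found in 76.1% and 60.6%, and *Mest* in 53.4% and 40.5%. To set both libraries at equal depth, each cell was thinned to 5000 UMIs, which left out 120 and 210 shallower cells. *Peg3* was then found in 71.9% (70.5% to 73.3%) and 62.1% (60.6% to 63.6%) of cells, although its CPM differed by a factor of 1.04. *Cdkn1c* was found in 61.7% and 46.8% and *Mest* in 34.9% and 25.6% of thinned cells, intervals that did not overlap.

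For *H19* the thinned share was 54.5% (53.0% to 56.1%) against 66.8% (65.3% to 68.2%), in the direction of its level. *Dlk1* differed far less in share than in level, with 28.6% (27.2% to 30.1%) and 31.6% (30.2% to 33.0%) of cells. Cells with *Dlk1* held on average 3.38 UMIs of it in the library labelled Bap1_WT and 5.46 UMIs in the library labelled Bap1_cKO. *Meg3* was found in 96.1% and 96.9% of thinned cells, *Ndn* in 81.9% and 78.5%, *Grb10* in 65.9% and 66.2% and *Plagl1* in 40.5% and 38.9%.

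No sorted cell type lacked these genes by design, so genes of cells outside the sort gate show what free RNA may give. The 6 myofiber genes were found in 0.171% to 13.5% of cells of the library labelled Bap1_WT and 0.114% to 10.1% of the library labelled Bap1_cKO, as deposited. The 5 erythroid genes were found in at most 6.17% and 8.34%. *Nap1l5*, at 2.41% (1.97% to 2.93%) and 0.708% (0.482% to 1.003%), lay within the range of these genes, so its share alone is not read as expression in FAPs. The part of free RNA in its counts was not tested. In the library labelled Bap1_WT its share was unequal between cell groups, with 1 of 1050 Dpp4-type cells (0.0952%, 0.00241% to 0.529%) and 98 of 3053 other cells (3.21%, 2.61% to 3.90%). Over all cells, the other 9 members were found in at least 38% of cells in both libraries. Within Dpp4-type cells, *Dlk1* was found in 13.6% of the library labelled Bap1_WT and 20.8% of the library labelled Bap1_cKO. The first share lay within the range of the myofiber genes in the same cells (0.190% to 15.2%). The part of free RNA in these *Dlk1* counts was not tested.

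**Figure D3:**
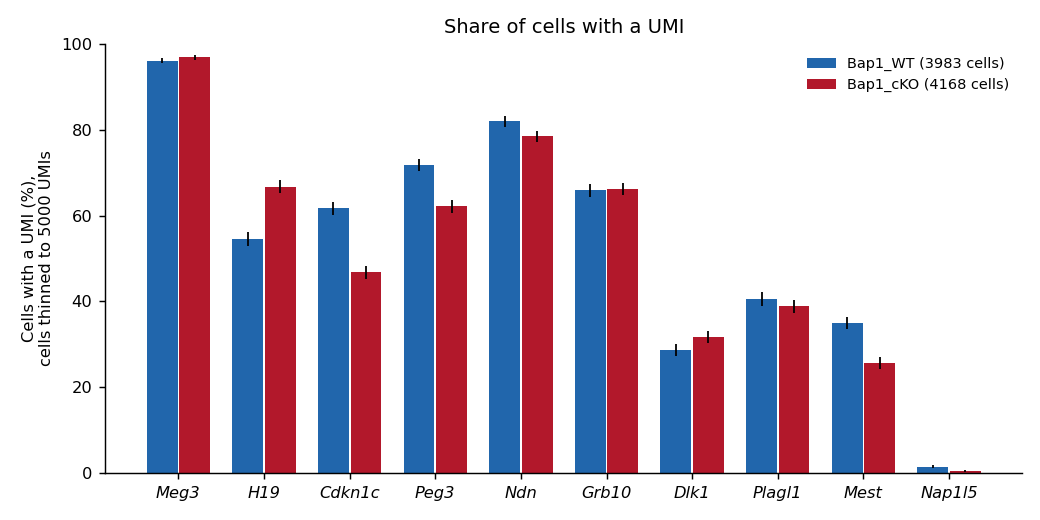
Share of cells with a UMI (%) after each cell was thinned to 5000 UMIs, for the 10 genes in 3983 cells of the library labelled Bap1_WT and 4168 cells of the library labelled Bap1_cKO, with exact binomial 95% intervals. *H19* is higher and *Peg3*, *Cdkn1c* and *Mest* are lower in the library labelled Bap1_cKO, while *Meg3* is near 96% in both.

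Members differed in how evenly they were spread over cells. In the library labelled Bap1_WT, the 10% of cells with the most UMIs of a gene held 25.5% of the UMIs of *Ndn*, 27.1% of *Meg3* and 27.5% of *Grb10*. They held 57.8% of the UMIs of *H19* and 69.3% of *Dlk1*. Single cells reached 228 *H19* UMIs per 10000, against a median of 1.56. In thinned cells the variance of *H19* was 15.5 times its mean, and 0.153% of the 12380 genes had a larger ratio, while the median over those genes was 1.04.

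*Peg3*, *Mest*, *Cdkn1c* and *Dlk1* were concentrated in fewer cells in the library labelled Bap1_cKO. The top 10% of cells held 46.1% of *Peg3* UMIs there, against 35.5% in the library labelled Bap1_WT. For *Mest* the shares were 63.2% and 49.8%, for *Cdkn1c* 64.3% and 49.2%, and for *Dlk1* 76.7% and 69.3%. *H19* went the other way, with 52.3% against 57.8%, while its variance in thinned cells was 25 times its mean. The median cell had 0.999 UMIs per 10000 of *Cdkn1c* in the library labelled Bap1_cKO and 2.23 in the library labelled Bap1_WT, although the 99th percentile was 41.4 and 38.8. Summed over the 10 genes, the median cell had 50.4 and 50.7 UMIs per 10000 in the 2 libraries. The 90th percentile was 126 in the library labelled Bap1_cKO and 107 in the library labelled Bap1_WT.

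A thinned cell held a UMI of a median of 5 of the 10 members in both libraries. At least 8 members were found in 22.8% of Cxcl14-type cells and 4.72% of Dpp4-type cells of the library labelled Bap1_WT. In the library labelled Bap1_cKO these shares were 18% and 3.58%.

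Correlations across cells were computed per library from thinned UMIs on a log scale, for the 9 members found in at least 10% of cells. Cells of a library share its preparation and thinning equalizes their totals, so the values describe these libraries and carry no test. Of 36 pairs, 25 had r over 0.1 in the library labelled Bap1_WT and 29 in the library labelled Bap1_cKO, with medians of 0.13 and 0.15. Over the genes found in at least 10% of cells, the median r with each member lay between -0.005 and 0.016. The 99th percentile of these values ran from 0.10 (*Grb10*) to 0.21 (*Dlk1*) in the library labelled Bap1_WT. In the library labelled Bap1_cKO it ran from 0.07 (*Ndn*) to 0.16 (*Dlk1*). Those genes were not matched to the members for abundance, and the share of all gene pairs over 0.1 was not computed. *Dlk1* led most of the highest pairs. With *Meg3*, its neighbor on the chromosome that is read from the other parental copy, r was 0.32 and 0.26. With *Mest*, on another chromosome, r was 0.32 and 0.37. *Dlk1* and *Cdkn1c* had r of 0.30 and 0.29.

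Within cell groups, *Dlk1* and *Meg3* had r of 0.14 and 0.06 in Dpp4-type cells, where *Dlk1* was scarce, and 0.39 and 0.31 in other cells. *H19* and *Cdkn1c*, on the same chromosome and 880 kb apart, had r of 0.28 and 0.21 in other cells. In Dpp4-type cells their r was 0.05 in the library labelled Bap1_WT and 0.25 in the library labelled Bap1_cKO. The values of *Ndn* ran low, with r from -0.01 to 0.18 with the other 8 members in the library labelled Bap1_WT. Its r with *Grb10* and with *Peg3* was about 0 there. *Grb10* had a similar range, from -0.00 to 0.19.

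**Figure D4:**
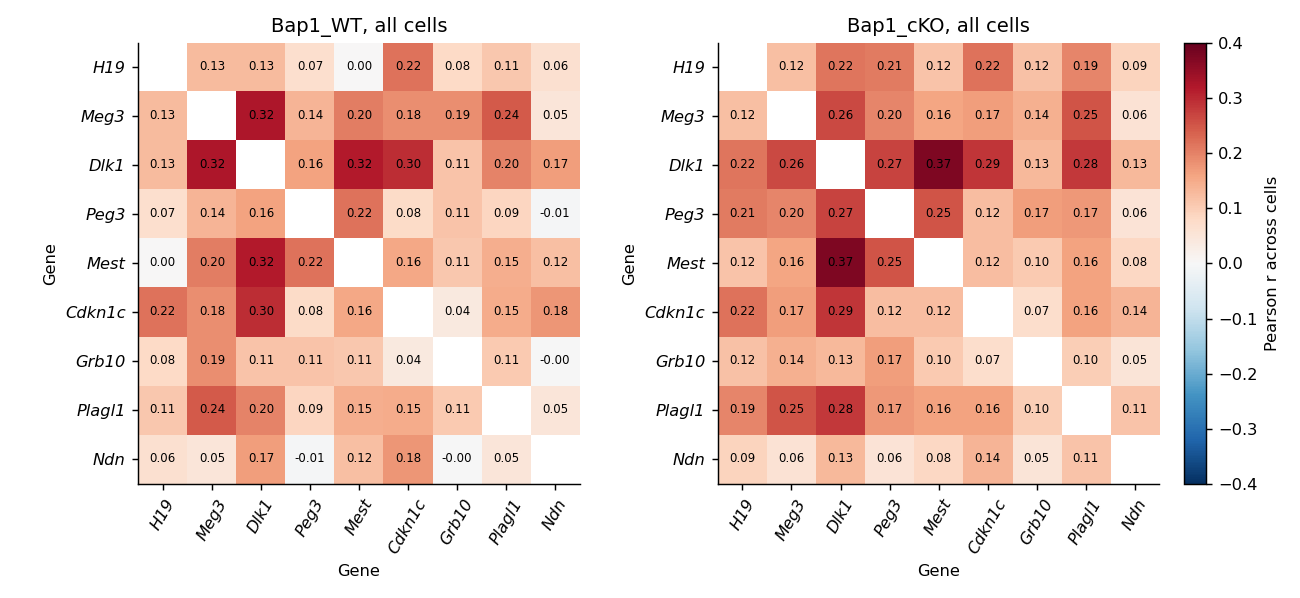
Pearson r across all cells of each library for the 9 members found in at least 10% of cells, from UMIs thinned to 5000 per cell on a log scale (color from -0.4 in blue to 0.4 in red). *Dlk1* has the darkest squares, with *Meg3* and *Mest* (both 0.32) in the library labelled Bap1_WT and with *Mest* (0.37) in the library labelled Bap1_cKO, and the rows of *Ndn* and *Grb10* are pale.

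The genes most like each member were named by the smaller of its r values in the 2 libraries, among 5316 genes that were not members. *Itm2a*, a membrane protein gene, came first for *H19* (r 0.26 and 0.28), *Dlk1* (0.35 and 0.34), *Cdkn1c* (0.36 and 0.29) and *Ndn* (0.25 and 0.20). *H19* was followed by *Col5a3* and *Fst*, *Dlk1* by *Col15a1* and *Col4a1*, *Cdkn1c* by *Smoc2* and *Hmcn2*, and *Ndn* by *Itih5* and *Fbln2*. *Smoc2* and *Col15a1* are among the 5 genes of the Cxcl14-type gate. For *Meg3* the leading genes were the noncoding RNAs *Malat1* (0.47 and 0.51), *Xist* (0.42 and 0.48) and *Kcnq1ot1* (0.29 and 0.35). *Xist* was found in at least 10% of thinned cells of both libraries. The study's methods give male mice only for its whole transcriptomic analysis, without saying whether that covers these libraries. The part of sex in the r of *Meg3* with *Xist* was not tested. *Peg3* was most like its chromosomal neighbor *Zim1* (0.32 and 0.47), then *Igf1* (0.26 and 0.42) and *Lpl* (0.22 and 0.28). *Lpl*, *Smoc2* and *Igfbp7* led for *Mest*, *Nid1*, *Angptl1* and *Zbtb20* for *Grb10*, and *Itih5*, *Nid1* and *Islr* for *Plagl1*, with r between 0.14 and 0.32.

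Of 38 other imprinted genes among the rows, 29 were compared over all cells. In the library labelled Bap1_cKO, 6 were higher and 3 lower by more than 1.5-fold, where 9.5% and 8.13% of all genes compared were. All 6 that were higher are usually expressed from the paternal copy, as are 16 of the 29 genes compared. Among maternally expressed genes, the member *H19* was also higher (1.84-fold). *Igf2r*, usually expressed from the maternal copy, was 1.44-fold higher over all cells and 1.76-fold higher (1.68 to 1.85) in Dpp4-type cells. *Igf2*, the growth factor gene next to *H19*, had 517 UMIs (10.1 CPM) and 1472 UMIs (29.7 CPM), a log2 ratio of 1.55 (1.41 to 1.70). It was thus higher in the same library as *H19*, and the r of the pair across cells was 0.15 and 0.25. *Igf2* was found in 9.75% and 20.5% of cells as deposited, and the first of these shares also lay within the range of myofiber genes. *Nnat*, a small membrane protein gene best known from neurons, had 9 and 315 UMIs, with the 315 UMIs in 150 cells, and a log2 ratio of 5.17 (4.23 to 6.31). With 0.176 CPM in the library labelled Bap1_WT and 6.36 CPM in the other, it passed the expression filter only through the library where it was higher.

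The other 4 were *Zdbf2* (1.13), *Snrpn* (0.91), *Dio3* (0.69), which lies in the cluster of *Dlk1* and *Meg3*, and *Usp29* (0.66), the neighbor of *Peg3*. *Dio3*, which inactivates thyroid hormone, had 117 of its 119 UMIs and 182 of its 186 UMIs in other cells, a distribution like that of *Dlk1*. The 3 that were lower were *Slc38a4*, an amino acid transporter (-1.51, -1.76 to -1.27), and the maternally expressed *Ppp1r9a* (-1.01) and *Asb4* (-0.88). *Magel2*, next to *Ndn*, had 63 and 14 UMIs, a log2 ratio of -2.13 (-3.08 to -1.28), but was under the expression filter and is not in these counts.

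Neighbors within a cluster did not all lie on the same side of 0. In the *Dlk1* cluster, *Dlk1* and *Dio3* were higher in the library labelled Bap1_cKO while *Meg3* (-0.16) and *Mirg* (-0.54, -0.65 to -0.44) were lower. At the *Peg3* locus, *Zim1* (0.12) and *Peg3* (0.06) were close to the median of all genes, and *Usp29* was higher. Near *Cdkn1c* (-0.46), *Kcnq1ot1* was at -0.22 (-0.25 to -0.19). The median log2 ratio was 0.24 over 16 other paternally expressed genes and -0.01 over 13 other maternally expressed genes, against 0.10 over all genes compared.

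**Figure D5:**
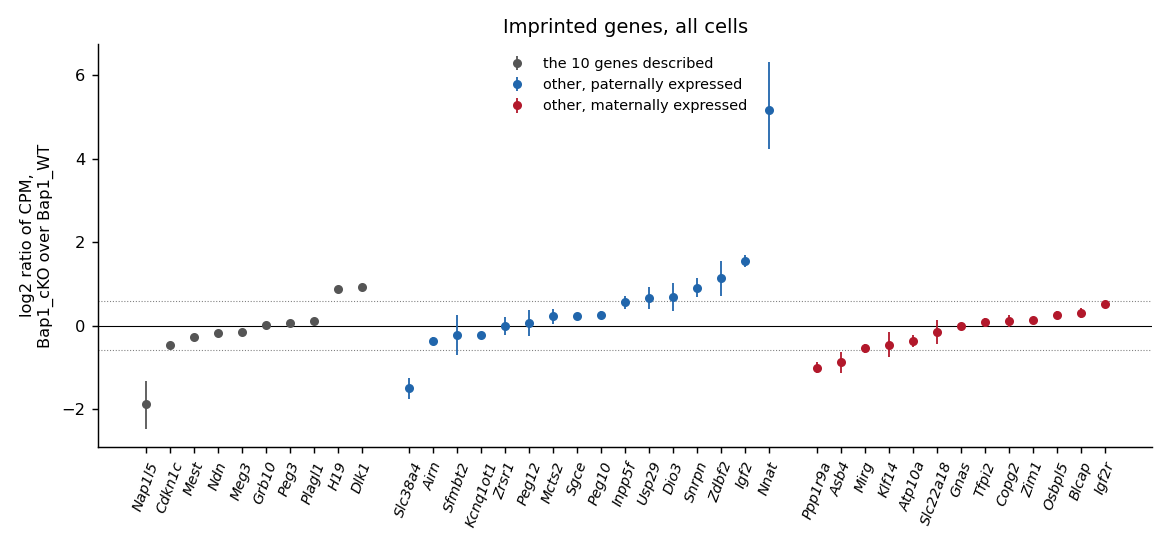
Log2 ratio of CPM in the library labelled Bap1_cKO over the library labelled Bap1_WT, all cells, for the 10 genes described and 29 other imprinted genes grouped by the copy that is usually expressed, with exact 95% counting intervals and dotted lines at 1.5-fold. *Nnat* and *Igf2* are the highest of the other genes, and *Slc38a4* and *Ppp1r9a* the lowest.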

How the data were processed

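Single-cell libraries of sorted FAPs (10x 3′ v3.1) were aligned to mm10 with Cell Ranger 3.1.0 and filtered in Seurat 3.2.1 (R 3.6.1), per the labels and the submitters' processing notes. The values deposited by the authors are UMI counts of genes in single cells, whole numbers that were not scaled. No further cell was removed. The gene set and the lists were chosen with earlier results of these data known.

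UMIs were summed per library and cell group and scaled to CPM. Ratios have exact conditional intervals at 95%. Genes entered with a mean over 0.01 UMIs per 10000 and at least 20 UMIs in the groups compared. With 1 library per genotype no test was run, and each genotype is described by size at 1.5-fold, 2-fold and 3-fold. All 10 members were named, with every other imprinted gene of the list past 1.5-fold with at least 20 UMIs, *Igf2*, and the 3 genes most like each member. Correlations used log1p of counts thinned to 5000 UMIs per cell. The ratios were tested on simulated data. Of 200 genes given a 2-fold change, 197 came out past 1.5-fold in sums simulated for all cells (12380 genes). In those for Dpp4-type cells (12066 genes) it was 193. Along with them came 24 and 359 genes given no change. These sums were drawn with Poisson counting error alone from 1 profile. They leave out differences between cells and between libraries, so they check the computation and not the error of these libraries. Alternatives changed the scaling, depth, cells, gate, minimum of UMIs and fold. Scrublet, run in scanpy 1.11.5, marked 2 and 1 cells, too few to serve as a doublet call. Python 3.11.15, scipy 1.17.1 and edgeR 4.0.16 (for TMM factors, no test) were used.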

Additional observations from a re-analysis of the deposited data

Results flagged for a closer look

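Of the 10 members, 4 had ratios on opposite sides of 0 in the 2 cell groups, and the difference between the groups was not tested. The share of all genes compared with such opposite ratios was not computed, so this count cannot be set against it. The log2 ratio of the library labelled Bap1_cKO over the library labelled Bap1_WT was -0.25 in Dpp4-type and 0.14 in other cells for *Peg3*. It was -0.24 and 0.12 for *Grb10* and -0.18 and 0.22 for *Plagl1*. For *Ndn* it was 0.16 and -0.30. With TMM scaling the values of *Peg3* and *Grb10* in other cells were 0.03 and 0.01.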

How the results depend on the processing

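No paired analysis was possible because there was 1 library for each genotype. Of 605 recomputed log2 ratios of the 10 members, none of the 18 ratios past 1.5-fold changed sign under any alternative run, and 4 smaller ratios did under at least 1: *Peg3* and *Grb10* between the libraries over all cells (TMM scaling), and *Plagl1* and *Ndn* between cell groups of the library labelled Bap1_cKO. Part of the 605 values could hardly change: another minimum of UMIs leaves a ratio as it is, and Scrublet took out 2 and 1 cells. The median log2 ratio of all genes between libraries in other cells was 0.11 and became -0.01 with TMM scaling.

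Counts of members past the fold moved mainly with the fold. At 3-fold, 1 member over all cells, 0 in Dpp4-type cells and 1 in other cells passed between the libraries. Between cell groups, 2 and 2 passed. The shares of all genes compared were 3.12%, 3.02%, 3.69%, 8.63% and 8.03% in the same order. At 2-fold, 1 member passed over all cells, 1 in Dpp4-type cells, and *H19* and *Nap1l5* in other cells. Between cell groups of either library, 3 passed. The shares of all genes compared were 7.71%, 7.83% and 8.75% between the libraries, and 14.7% and 14.3% between cell groups. Of the 29 other imprinted genes compared over all cells, 5 passed 2-fold and 1 passed 3-fold, where 7.71% and 3.12% of all genes compared did. Without the 42 and 44 cells with the most member UMIs, 1 member in place of 3 passed 1.5-fold in Dpp4-type cells (*Dlk1*). The share of all genes past 1.5-fold was not computed without these cells. Between cell groups, the log2 ratio of *Nap1l5* ranged over the alternatives from -5.94 to -4.36 in the library labelled Bap1_WT and from -1.91 to -0.78 in the other. The alternative without tendon-like and adipocyte-marker cells was chosen after seeing the data, and the counts were the same under it. With 1 library per genotype, differences between libraries and between genotypes cannot be told apart.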
